A study of Mus musculus with 2 samples.

Results

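From the 55450 annotated genes of the RSEM-style gene tables, voltage-gated calcium channels of the heart were described here through 10 genes. These were chosen by symbol in the kallisto-style tables and joined to the RSEM-style tables by gene identifier. They were 4 genes of pore subunits (Cacna1c, Cacna1d, Cacna1g and Cacna1h), 4 of beta subunits (Cacnb1, Cacnb2, Cacnb3 and Cacnb4) and 2 of alpha2delta subunits (Cacna2d1 and Cacna2d2). The rule used symbols alone, although earlier results of these data were known when the genes were picked, and all 10 were found in both libraries and in each kind of table. Total RNA of heart tissue was sequenced from B6CASTF1/J mice, F1 offspring of C57BL/6J and CAST/EiJ parents, all male and 14 days old, with no treatment or altered gene named. The 2 libraries formed a single group, were called biological replicates 1 and 2, and were each made from 300 ng of RNA. They came from separately numbered tissue samples with the same donor label, which names 3 males; no label says whether animals were pooled. With a single group no conditions could be compared, so levels are given as descriptions with the SD over the libraries (n = 2), and that SD may be partly technical.

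The pore subunit of a voltage-gated calcium channel opens when the membrane depolarises and lets calcium into the cell. The L-type pores, encoded by Cacna1c and Cacna1d, carry the current that triggers calcium release and contraction in heart muscle and takes part in pacemaking, while the T-type pores, encoded by Cacna1g and Cacna1h, open at more negative voltages. Beta subunits bind the pore from inside the cell and help it reach the membrane, and alpha2delta subunits sit on the outer face and raise its surface level; T-type pores can work without them.

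The libraries held 39334380 and 46391250 expected counts, of which the 10 genes took 25402 and 29664. All 6 cardiomyocyte markers were present at 1 TPM or more (TPM is an abundance scaled for transcript length and library size), with medians of 3285 and 3128 TPM, so the labelled tissue showed its defining genes. The libraries differed in several marker lists. All 6 atrial markers were higher in replicate 1, with summed levels of 1630 and 507 TPM, while 7 of 7 T cell and thymus markers were higher in replicate 2, with sums of 1.41 and 44.4 TPM. Neuron and Schwann cell markers were close to absent: 1 of 8 reached 1 TPM in both libraries, and Th was among those at 0 in both. Of 8 skeletal muscle markers, 2 reached 1 TPM in both libraries, Acta1 at 115 and 147 TPM and Mylpf at 1.23 and 1.71 TPM. Myh1 and Myh2 were at 0 TPM in both. In bulk tissue, fewer cells of a type and less RNA per cell cannot be told apart.

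Of the 10 subunit genes, 9 reached 1 TPM in both libraries, against 52% of the 21951 protein-coding genes; since the genes were picked with earlier results known, nothing is read from that difference. Cacna1c led, followed by Cacna2d1, Cacnb2 and Cacna1g, and these 4 levels did not overlap between genes. Below them the order was Cacna2d2, Cacnb3, Cacnb1, Cacna1h, Cacna1d and Cacnb4. In this lower stretch the libraries' ranges overlapped between Cacna2d2 and Cacnb3, between Cacnb1 and Cacna1h, and between Cacna1h and Cacna1d, so the order of those neighbours was not resolved. The range of Cacna2d2, 2.03 to 6.54 TPM, also overlapped those of Cacnb1, Cacna1h and Cacna1d, so its place among them was not resolved either. Cacnb4 alone stayed under 1 TPM.

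**Figure D1:**
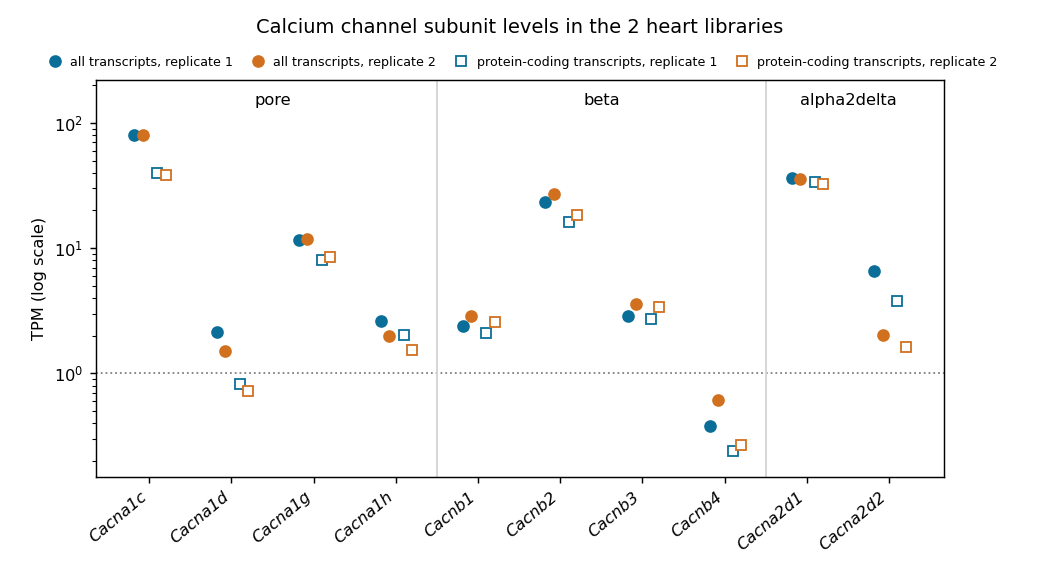
TPM of the 10 subunit genes on a log axis in replicate 1 (blue) and replicate 2 (orange), summed over all transcripts (filled circles) or over protein-coding transcripts (open squares), with a dotted line at 1 TPM. Cacna1c lies near 80 TPM by all transcripts and near 39 TPM by coding transcripts, close above Cacna2d1, and Cacna2d2 is the gene whose libraries lie farthest apart.

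Cacna1c encodes Cav1.2, the main L-type pore of heart muscle, and lies on the minus strand of chromosome 6 (mm10, chr6:118587240-119196418). Its gene level was 80.9 TPM in replicate 1 and 79.8 TPM in replicate 2, backed by 12954 and 15132 counts, and 93.6% of the protein-coding genes detected in both libraries had a lower mean. It made up 83.1% and 83.9% of the summed TPM of the 4 pore genes. Cacna1g, a T-type pore, stood at 11.7 and 11.8 TPM, and gave 12.02% and 12.4% of that sum. Cacna1h, the other T-type pore, stood at 2.62 and 1.99 TPM, and Cacna1d, the L-type pore of pacemaker and atrial cells, at 2.15 and 1.52 TPM. Cacna1c, Cacna1g and the remaining pair were thus separate in both libraries, while Cacna1h and Cacna1d overlapped. Cacna1d lies at chr14:30039939-30491455 and Cacna1h at chr17:25374285-25433783, both on the minus strand.

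About as much of the Cacna1c level lay outside protein-coding transcripts as in them. Protein-coding transcripts held 39.7 and 38.6 TPM of Cacna1c, which was 49.1% and 48.3% of the gene's TPM, although they held 87.7% and 87.1% of its counts. A single short transcript, Cacna1c-218, annotated as a processed transcript of 954 bases in 4 exons, was given 31.4 and 31.9 TPM, or 38.8% and 39.9% of the gene's TPM, from 822 and 998 expected counts. The deposited interval for it ran from 28.5 to 33.7 TPM in replicate 1 and from 29.2 to 33.9 TPM in replicate 2. The kallisto-style tables gave it less, 17.1 and 19.2 TPM, so that coding transcripts held 65.4% of the Cacna1c level in each library there.

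Cacna1c-218 begins at base 119196409, which is also the first start of Cacna1c in RefSeq, and 745 of its bases lie in exons shared with coding transcripts. Its last exon, of 209 bases (chr6:118946163-118946371, minus strand), is in an intron of the coding transcripts and holds its only bases outside their exons. The exon is printed because the coding share of Cacna1c turns on it. Capitals mark AATAAA, the usual polyadenylation signal, searched on the transcript strand only, and the match starts 20 bases before the end of the transcript. Of 15889 processed transcripts in GENCODE M21, 16.9% held AATAAA in their last 50 bases, as did 40.5% of 58797 protein-coding transcripts.
Cacna1c-218 exon 4: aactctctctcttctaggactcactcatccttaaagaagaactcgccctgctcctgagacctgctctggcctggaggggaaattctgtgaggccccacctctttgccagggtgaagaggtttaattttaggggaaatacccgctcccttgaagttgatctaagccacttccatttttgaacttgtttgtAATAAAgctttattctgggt
The tables hold no counts per exon or splice junction, so the split between Cacna1c-218 and the coding transcripts rests on how each program divided the reads of shared exons.

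The coding transcripts of Cacna1c use several first exons, which give the channel different N termini. The first coding start, at base 119196231, held 68.5% and 72.4% of coding TPM in the RSEM-style tables and 63.8% and 66.1% in the kallisto-style tables. The second, at base 119107975, held 20.9% and 13.3%, or 22.5% and 16.3% by kallisto. Both tables thus placed the first start well above the second in both libraries. The long N terminus of the first start is known from heart muscle, and the second from smooth muscle and brain. The opening 60 coding bases of each are shown with the start codon in capitals; those of the second span the first intron after it (chr6:119057505-119107975).
Cacna1c first start: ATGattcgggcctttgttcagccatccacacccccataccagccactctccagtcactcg
Cacna1c second start: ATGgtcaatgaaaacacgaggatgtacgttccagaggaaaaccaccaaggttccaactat
Cacna1c-207 (13.9 and 13.3 TPM) and Cacna1c-212 (11.9 and 13.4 TPM), both with a coding length of 6507 bases, carried most of the first start. A further group of 4 annotated transcripts whose coding part begins at base 118780324 without ATG held 7.43% and 9.05% of coding TPM, and 11.0% and 15.2% by kallisto.

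The DNA before the RefSeq transcript starts of Cacna1c differed in composition. For the promoters, first and second start mean these transcript starts, at bases 119196409 and 119108495, and not the coding starts above. RefSeq promoters (GRCm38.p6) were matched for 8 of the 10 genes, with 16 promoters in all, and the 250 bases before each start were read. Before the first Cacna1c start (chr6:119196410-119196659) GC content was 51.6% with 2 CpG, and before the second (chr6:119108496-119108745) it was 82.8% with 48 CpG. Over 32851 mouse promoters of the same length the medians were 52.4% GC and 6 CpG. TATAAA was in neither and is in 12.4% of all. GGGCGG, the core of the Sp1 site, had no match before the first start and 6 before the second, counting overlapping matches, and is in 32.7% of all. Motifs were searched on both strands, and a match or its absence in this window says nothing of binding. The stretches below leave out bases that GENCODE puts in an exon and show CpG in capitals (chr6:119196419-119196659 and chr6:119108574-119108745, both minus strand).
Cacna1c before the first start: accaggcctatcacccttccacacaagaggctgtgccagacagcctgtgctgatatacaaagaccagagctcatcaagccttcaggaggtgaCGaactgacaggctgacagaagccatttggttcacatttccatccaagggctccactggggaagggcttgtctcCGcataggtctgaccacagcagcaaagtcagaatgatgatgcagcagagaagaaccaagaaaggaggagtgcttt
Cacna1c before the second start: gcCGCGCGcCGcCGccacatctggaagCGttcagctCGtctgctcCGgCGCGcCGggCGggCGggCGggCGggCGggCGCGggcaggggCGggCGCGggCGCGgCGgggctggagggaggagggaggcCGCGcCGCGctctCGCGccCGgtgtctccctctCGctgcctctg
The remaining RefSeq start of Cacna1c had 50.4% GC and 5 CpG before it. Of the 6 genes with more than 1 promoter, Cacna1c, Cacna1d and Cacnb3 had the lower GC content before the first start than before the second, and Cacnb1, Cacnb2 and Cacnb4 the higher, so no order was shared by the family. At Cacna1d the values were 39.6% GC with 2 CpG and then 86.4% GC with 50 CpG, and at Cacnb2 73.2% GC with 30 CpG and then 46.0% GC with 3 CpG.

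**Figure D2:**
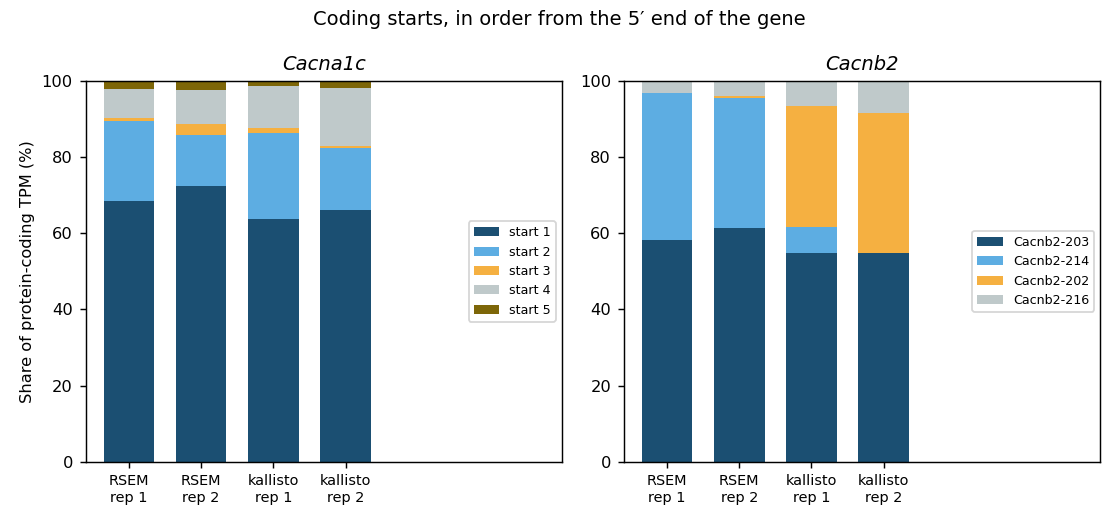
Share of protein-coding TPM at each coding start of Cacna1c (left, numbered from the 5′ end) and Cacnb2 (right, named by transcript), stacked to 100%, for each kind of table and replicate. The first Cacna1c coding start holds 63.8% to 72.4% in the 4 columns, and Cacnb2-214 and Cacnb2-202 trade places between the tables.

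Downstream of the start, 3 pairs of exons in Cacna1c are alternatives to each other, and each pair encodes variants of a membrane segment or its flank. The choice within the pairs is known to differ between heart and smooth muscle channels. Each exon of a pair has the same length, and the members differ at 32 of 104, 25 of 60 and 35 of 84 bases. Each share that follows is the coding TPM of transcripts with that exon, over the sum of this value for both exons. No annotated coding transcript holds both exons of the 104-base pair, but 2 do for the 60-base pair and 3 for the 84-base pair. Those transcripts count toward each exon of their pair.

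In the 104-base pair the upstream exon (chr6:118742265-118742368) held 86.5% and 81.2%, or 80.1% in both libraries by kallisto, over the downstream exon (chr6:118741871-118741974). This was the most one-sided of the 3 pairs in both tables. The sequences are shown, minus strand, with the bases that differ in capitals.
Cacna1c 104-base upstream: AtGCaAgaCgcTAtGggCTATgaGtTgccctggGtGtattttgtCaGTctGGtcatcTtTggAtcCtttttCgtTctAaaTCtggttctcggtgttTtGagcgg
Cacna1c 104-base downstream: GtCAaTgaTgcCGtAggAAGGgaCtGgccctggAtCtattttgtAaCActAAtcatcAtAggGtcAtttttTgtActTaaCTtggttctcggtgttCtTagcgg

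The 60-base pair was close to even. Its upstream exon (chr6:118674555-118674614) held 40.7% in replicate 1 and 50.6% in replicate 2, and 46.6% and 53.1% by kallisto, so the libraries fell on either side of an even split with the downstream exon (chr6:118674346-118674405).
Cacna1c 60-base upstream: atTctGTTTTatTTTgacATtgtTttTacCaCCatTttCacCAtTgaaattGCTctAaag
Cacna1c 60-base downstream: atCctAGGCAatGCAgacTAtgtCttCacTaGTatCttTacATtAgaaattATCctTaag

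The 84-base pair leaned to the downstream exon (chr6:118637730-118637813). The upstream exon (chr6:118638427-118638510) held 44.2% and 44.3%, and 43.3% and 42.7% by kallisto, a difference between libraries of under 1 percentage point in each table.
Cacna1c 84-base upstream: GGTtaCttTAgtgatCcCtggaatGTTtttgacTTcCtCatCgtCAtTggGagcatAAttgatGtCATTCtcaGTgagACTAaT
Cacna1c 84-base downstream: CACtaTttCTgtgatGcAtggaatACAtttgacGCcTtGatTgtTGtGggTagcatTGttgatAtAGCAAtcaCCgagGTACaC

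Among exons that are used or skipped, a 33-base exon of Cacna1c (chr6:118630399-118630431) was held by 90.0% and 88.7% of its coding TPM. By kallisto the shares were 87.8% and 85.8%. The rest was not all skipping, since a 207-base form that contains these bases (chr6:118630225-118630431) held 3.93% and 4.49%. By kallisto this longer form held 7.80% and 9.43%. A 75-base exon in the loop region between the first and second repeats (chr6:118715903-118715977) was held by 14.6% and 20.9%, and by 17.8% and 25.2% by kallisto. It was the minor form in both libraries and is shown whole.
Cacna1c 75-base exon: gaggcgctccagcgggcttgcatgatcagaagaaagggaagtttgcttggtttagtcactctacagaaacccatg
Cacna1d has its own 104-base pair, in which the exons differ at 22 bases, and its downstream exon held 63.9% and 100% of 0.83 and 0.72 coding TPM. With 357 and 285 counts for the whole gene, that difference cannot be resolved.

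**Figure D3:**
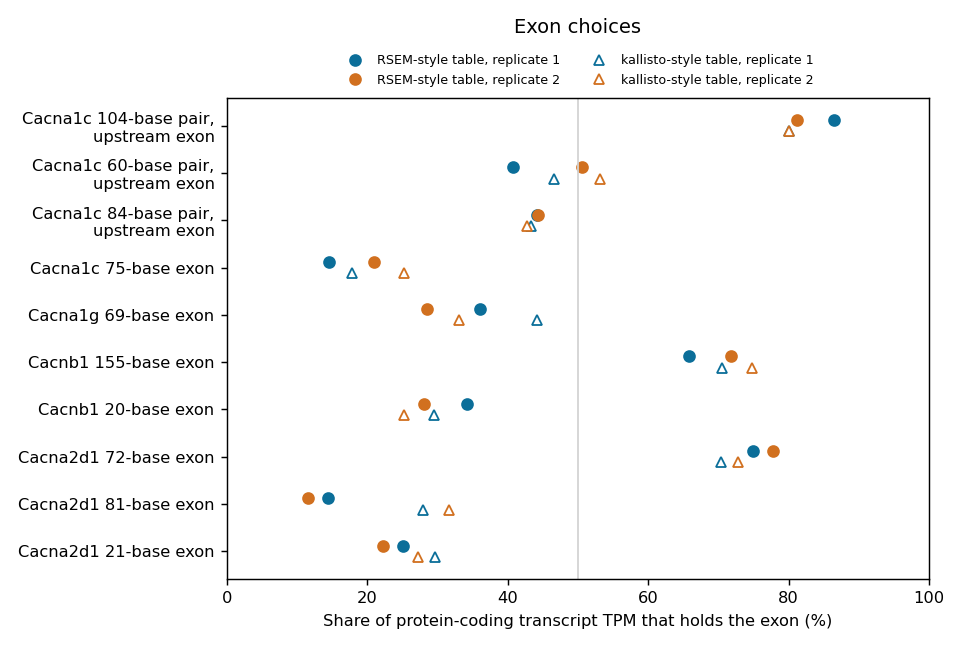
Share of protein-coding TPM (x axis, %) in transcripts that hold each exon, by table (circles RSEM-style, triangles kallisto-style) and replicate (blue 1, orange 2). For the 3 Cacna1c pairs the share is of the summed TPM of both exons, and transcripts with both count toward each. The 104-base pair lies between 80.1% and 86.5% and the 60-base pair on both sides of 50%.

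The T-type pore Cacna1g (chr11:94408391-94474198, minus strand) was mostly coding by TPM, with 68.97% and 72.4% in protein-coding transcripts. All 11 of its annotated coding transcripts share a single coding start, so start use could not be compared. A 54-base exon was held by 92.9% and 97.8% of its coding TPM. A 69-base exon in coding sequence (chr11:94439709-94439777) was held by 36.1% and 28.5%, and by 44.2% and 33.01% in the kallisto-style tables, so it was the minor form in each and lower in replicate 2.
Cacna1g 69-base exon: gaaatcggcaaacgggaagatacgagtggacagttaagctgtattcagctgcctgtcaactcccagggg
The leading coding transcripts were Cacna1g-208, at 2.99 and 2.90 TPM, and Cacna1g-203, at 2.62 and 1.97 TPM. The kallisto-style tables led instead with Cacna1g-203, at 3.55 and 2.61 TPM, and Cacna1g-201, at 3.17 and 3.01 TPM.

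The tables disagreed most on Cacna1h, whose gene level was 2.62 and 1.99 TPM by RSEM and 3.48 and 4.09 TPM by kallisto. The order of the libraries was reversed between them, although the counts of either kind of table put replicate 1 higher. In the kallisto-style table of replicate 2, 1.87 of the 4.09 TPM belonged to Cacna1h-209, a 524-base transcript annotated for nonsense-mediated decay, on 13.1 estimated counts. The RSEM-style gene values also lay under the deposited intervals, which began at 2.70 and 2.07 TPM. All 2.04 and 1.53 coding TPM went to Cacna1h-205 in the RSEM-style tables, while kallisto gave more to Cacna1h-201, at 1.83 and 1.51 TPM. Those transcripts differ by shifts of a few bases at exon ends, and the level of Cacna1h is the least certain of the pore genes.

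Among the beta subunits, Cacnb2, the beta subunit of heart muscle, stood at 23.4 and 27.2 TPM from 1921 and 2627 counts. Cacnb3 followed at 2.89 and 3.61 TPM, Cacnb1, known best from skeletal muscle, at 2.37 and 2.85 TPM, and Cacnb4, known best from brain, at 0.38 and 0.61 TPM. Cacnb2 made up 80.6% and 79.4% of the beta sum, and each of the 4 beta genes was higher in replicate 2 by TPM. Cacnb1 (chr11:98001508-98023034) and Cacnb4 (chr2:52428320-52676831) lie on the minus strand and Cacnb3 (chr15:98630840-98644529) on the plus strand. Cacnb4 rested on 60 and 82 counts, and 15.99% of its exon bases are shared with A430018G15Rik on the other strand, itself at 0.57 and 0.36 TPM. Whether counting used strand is not given in the sources used here, so the level of Cacnb4 is uncertain. Overlaps on the other strand in Cacna1d, Cacna1h, Cacnb1, Cacnb2 and Cacna2d2 covered at most 4.67% of exon bases, by genes at 0.21 TPM or less.

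Cacnb2 (chr2:14603088-14987908, plus strand) has first exons that change the N terminus of the beta subunit. Cacnb2-203 led in both tables, with 9.31 and 11.2 TPM, or 58.2% and 61.5% of coding TPM, and 54.9% and 55.0% by kallisto. The second place depended on the table. The RSEM-style tables gave Cacnb2-214 6.20 and 6.22 TPM and Cacnb2-202 0.00 and 0.10 TPM. The kallisto-style tables gave Cacnb2-214 1.30 TPM in replicate 1 and nearly none in replicate 2, and Cacnb2-202 6.21 and 8.24 TPM. These transcripts have the same length of 2117 bases and differ in the first exon and in where the last exon ends, and the tables do not settle which of them holds the second place. The opening 60 coding bases of each are printed, plus strand, start codon in capitals, at chr2:14604451-14604510 for Cacnb2-203, within chr2:14824256-14874778 across an intron for Cacnb2-214, and at chr2:14873877-14873936 for Cacnb2-202.
Cacnb2-203 start: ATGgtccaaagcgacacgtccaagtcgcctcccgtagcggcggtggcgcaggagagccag
Cacnb2-214 start: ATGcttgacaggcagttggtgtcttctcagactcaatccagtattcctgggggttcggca
Cacnb2-202 start: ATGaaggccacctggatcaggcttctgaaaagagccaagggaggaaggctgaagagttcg
Nearly all Cacnb2 coding TPM that spans the middle of the gene held the 134-base exon (99.4% and 100%) and not its 20-base alternative. Of the 4 annotated coding transcripts that span it, only 1 holds the 20-base exon, Cacnb2-212 of 430 bases. It had 0.09 and 0.00 TPM, so this share is largely set by the annotation. Retained-intron transcripts took 28.2% and 31.9% of the Cacnb2 level, led by Cacnb2-215 at 3.54 and 5.57 TPM, and 28.4% and 30.7% by kallisto.

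Cacnb1 has the same kind of exon choice as Cacnb2, and 2 of its 5 annotated coding transcripts hold the 20-base exon. Its 155-base exon (chr11:98011343-98011497) was held by 65.9% and 71.9% of coding TPM and its 20-base alternative (chr11:98010627-98010646) by 34.1% and 28.1%. By kallisto the 155-base exon held 70.5% and 74.8%, so it was the major form in each library and table, on 144 and 212 counts. Both are shown, minus strand.
Cacnb1 155-base exon: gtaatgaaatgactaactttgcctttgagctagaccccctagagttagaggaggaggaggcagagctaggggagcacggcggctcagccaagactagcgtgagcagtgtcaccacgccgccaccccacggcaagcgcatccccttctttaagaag
Cacnb1 20-base exon: ccaaacagaagcagaaatcg
The leading Cacnb1 transcript was Cacnb1-202, at 0.80 and 1.09 TPM, ahead of Cacnb1-204 and Cacnb1-201. For Cacnb3 the 3 coding transcripts Cacnb3-201, Cacnb3-202 and Cacnb3-206 each took between 14.7% and 50.6% of the gene's TPM in the RSEM-style tables, in the same order in both libraries (Cacnb3-206, Cacnb3-202, Cacnb3-201), and by kallisto their order differed between the libraries.

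Of the alpha2delta subunits, Cacna2d1 stood at 36.3 and 35.6 TPM from 6516 and 7645 counts, and Cacna2d2 at 6.54 and 2.03 TPM from 666 and 319 counts. Cacna2d1 was close between the libraries, and its ratio to Cacna1c was 0.448 and 0.446. Cacna2d2 (chr9:107399612-107529343, plus strand) was higher in replicate 1, so that Cacna2d1 held 84.7% of the alpha2delta sum in replicate 1 and 94.6% in replicate 2. The second-ranking subunit gene by level, Cacna2d1 was also among the most coding, with 92.7% and 91.3% of TPM in protein-coding transcripts.

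The coding transcripts of Cacna2d1 (chr5:15934691-16374511, plus strand) shared a coding start and differed in short stretches of exon. A 72-base form of an exon (chr5:16326312-16326383) held 74.98% and 77.8% of coding TPM, and the rest used a form without its first 15 bases. A 21-base exon (chr5:16341990-16342010) held 25.02% and 22.2%. By kallisto the shares were 70.4% and 72.7% for the 72-base form and 29.6% and 27.3% for the 21-base exon. The tables and libraries thus gave the same major form. In the sequences the 15 optional bases are in capitals.
Cacna2d1 72-base form: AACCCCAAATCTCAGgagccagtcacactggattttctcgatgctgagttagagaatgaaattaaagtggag
Cacna2d1 21-base exon: caaaaaagggaaaaatgaagg
Cacna2d1-202, with the 72-base form, led at 19.7 and 20.7 TPM, and Cacna2d1-206, with the 21-base exon, followed at 8.19 and 6.97 TPM. Cacna2d1-205, the transcript with an 81-base form of a further exon, was given 4.69 and 3.62 TPM by RSEM and 10.4 and 11.5 TPM by kallisto.

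By coding transcripts the beta and alpha2delta sums stood closer to the pore sum than by gene totals. Over all transcripts the pore genes summed to 97.4 and 95.1 TPM, the beta genes to 29.0 and 34.3 TPM and the alpha2delta genes to 42.8 and 37.6 TPM. For each pore TPM there were then 0.298 and 0.360 beta TPM and 0.440 and 0.396 alpha2delta TPM. Counting coding transcripts alone, the ratios were 0.418 and 0.496 for beta and 0.739 and 0.691 for alpha2delta. Cacna1c exceeded Cacna2d1 by 2.24 times by gene mean and by 1.18 times by coding mean, and in the latter the ranges still did not overlap. These are RNA ratios and not subunit numbers in channels, and T-type pores are counted in the denominator.

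**Figure D4:**
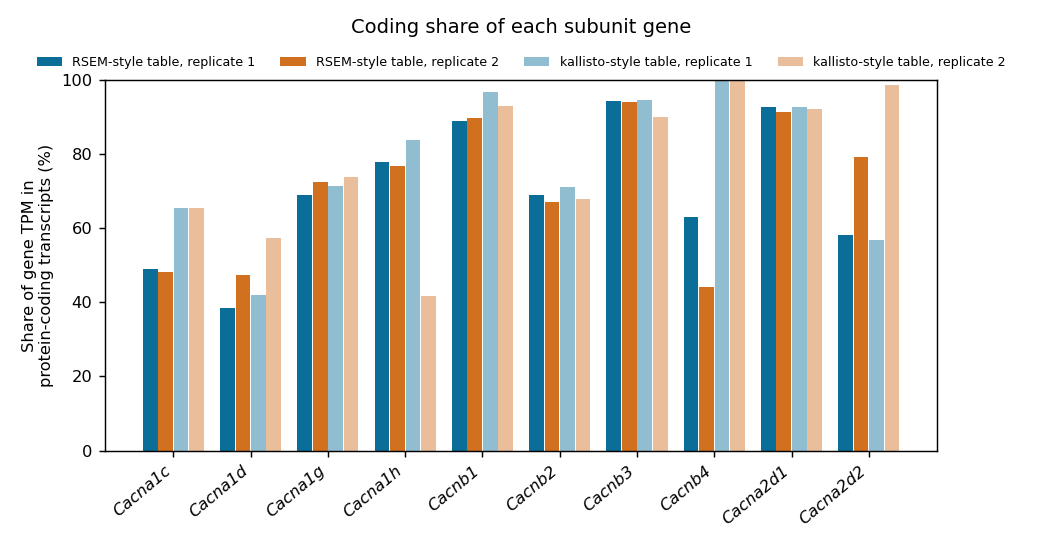
Share of each gene's TPM in protein-coding transcripts (%), with dark bars for the RSEM-style and pale bars for the kallisto-style tables, in replicates 1 (blue) and 2 (orange). Cacna1c is at 49.1% and 48.3% by RSEM and 65.4% by kallisto, while Cacnb3 and Cacna2d1 are at 89.9% or more in all 4 columns.

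The libraries were compared by counts scaled with TMM factors, with exact 95% intervals that cover counting error only. A single subunit gene, Cacna2d2, differed 2-fold or more, where 4.68% of 16594 genes did, 1.19% with the lower and 3.49% with the higher value in replicate 2. Cacna2d2 was 2.54-fold higher in replicate 1 (95% interval 2.22 to 2.91), a log2 ratio of -1.34 of replicate 2 over replicate 1. TPM divides by the effective length, which the authors' table gave as 3325 bases in replicate 1 and 4289.7 bases in replicate 2, and with TPM and a pseudocount of 0.1 the log2 ratio was -1.64. Beside it, replicate 1 had the higher summed atrial markers (3.21-fold; single levels from 16.7 to 841 TPM against 6.99 to 242 TPM), and all 5 adipocyte markers were higher there too, with sums of 53.5 and 32.9 TPM. Higher in replicate 1 too were 5 of 5 fibroblast markers (sums of 516 and 440 TPM). So were 5 of 6 conduction markers, but their sums were close, at 11.4 and 10.5 TPM. Of 7 smooth muscle and pericyte markers, 6 were higher in replicate 1, though their sums were 388 and 404 TPM. All 5 macrophage markers were higher in replicate 2, as were the T cell and thymus markers. So were 6 of 8 skeletal muscle markers, but only Acta1 and Mylpf of that list reached 1 TPM in both libraries. Of the others, Myh4 (0 and 2), Ryr1 (2 and 5) and Tnnt3 (3 and 8) rested on few counts. Cardiomyocyte, endothelial and neuron lists were split. The part of these lists in the Cacna2d2 difference was not tested.

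The noncoding transcripts of Cacna2d2 were lower in replicate 2 as well. Cacna2d2-207, a processed transcript, had 2.00 and 0.42 TPM and Cacna2d2-206, with a retained intron, 0.70 and 0.00 TPM. Coding transcripts of Cacna2d2 had 3.80 and 1.61 TPM, led by Cacna2d2-208 at 2.02 and 0.95 TPM, so the difference was present in the coding part alone.

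Cacna1d was next, 1.52-fold higher in replicate 1 (1.30 to 1.78), and Cacna1h was 1.33-fold higher in replicate 1, a log2 ratio of -0.41 (-0.59 to -0.23). Cacnb2 was higher in replicate 2 by a log2 ratio of 0.17 (0.09 to 0.26). Cacna1c and Cacna2d1, the most deeply counted genes, differed by log2 ratios of -0.06 and -0.05, and their intervals also lay just below 0. In all, the intervals of 6 subunit genes excluded 0. The share of all genes tested with such an interval was not computed, so nothing is read from that count. The ratios of 9 of the 10 lay inside the central 95% of all genes tested, which ran from -0.73 to 1.22. The same marker values stand beside the Cacna1d and Cacna1h differences, and their part in these was not tested. Conduction system markers, where Cacna1d and Cacna1h are also known, summed to 11.4 and 10.5 TPM, with 3 of 6 at 1 TPM or more in both libraries.

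**Figure D5:**
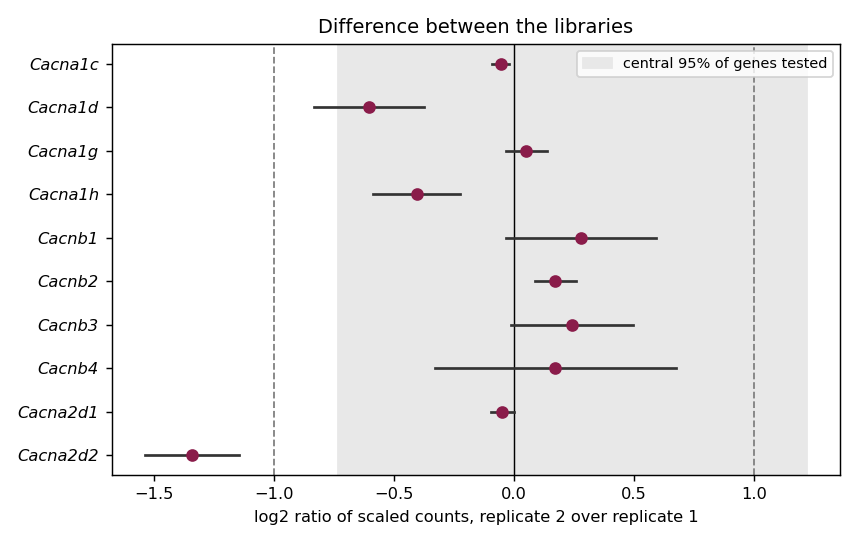
Log2 ratio of TMM-scaled counts, replicate 2 over replicate 1, for each subunit gene, with exact 95% intervals for counting error, dashed lines at 2-fold and the central 95% of 16594 genes in grey. Cacna2d2, at -1.34, is the one gene outside the grey band and past 2-fold.

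The other calcium channel subunit genes were mostly below 1 TPM. Of 16 further pore, alpha2delta and gamma genes, 2 reached 1 TPM in both libraries, against 52% of protein-coding genes. The other 14 were below it in both, and Cacng2 and Cacng8 had no expected count. Cacna1a, a pore gene known best from neurons, stood at 1.44 and 1.79 TPM, and Cacng7, a gamma subunit, at 2.51 and 2.19 TPM. Neither differed 2-fold between the libraries. Cacna1s, the skeletal muscle L-type pore, was at 0.62 and 0.65 TPM, below both Cacna1c and Cacna1d, and was named after its values were seen.

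Genes of proteins that bind, anchor or regulate the channel were mostly present, with 24 of 28 at 1 TPM or more in both libraries and none 2-fold apart. Of protein-coding genes 52% reached that level, and 4.68% of all genes tested were 2-fold apart. The list was chosen with earlier results known, so nothing is read from these counts. Among the RGK proteins, small GTPases that inhibit the channel, Rrad stood at 77.6 and 81.4 TPM. That was close to the gene level of Cacna1c, whose coding transcripts held 39.7 and 38.6 TPM. Rem1 stood at 4.19 and 3.74 TPM, Gem at 2.29 and 3.09 TPM and Rem2 below 1 TPM. Stac, Stac2 and Stac3, adaptors that bind the pore, were the other genes below 1 TPM. Calm2 and Calm3, which encode calmodulin, whose binding closes the channel as calcium rises, stood at 70.5 and 75.9 TPM and at 94.6 and 103 TPM.

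The beta-adrenergic arm was led by Prkaca, the catalytic subunit of protein kinase A, at 164 and 162 TPM, with Prkacb at 32.2 and 28.0 TPM. The receptor gene Adrb1 was lower, at 9.13 and 9.51 TPM. Among the anchoring proteins of the kinase, Akap13 stood at 33.1 and 33.02 TPM, Akap7 at 25.9 and 19.5 TPM and Akap5 at 1.17 and 1.44 TPM. Camk2d, the calcium-dependent kinase of heart muscle, stood at 61.3 and 65.4 TPM.

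At the junction of the surface membrane with the calcium store, Ryr2, the release channel, stood at 386 and 401 TPM, and Jph2, which ties both membranes together, at 155 and 165 TPM. Ank2 stood at 136 and 129 TPM, Ahnak at 135 and 118 TPM, and Bin1, which shapes transverse tubules, at 4.64 and 5.0 TPM. The ubiquitin ligases Nedd4 and Nedd4l stood at 174 and 171 TPM and at 19.97 and 19.3 TPM. Of the splicing regulators on the list, Rbfox2 stood at 48.7 and 46.0 TPM, Ptbp1 at 32.4 and 33.7 TPM and Rbfox1 at 18.6 ± 1.92 TPM (SD, n = 2). The counts of Calm2 and Calm3 may share reads with near-identical copies and are uncertain to that extent.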

How the data were processed

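Total RNA was measured by stranded sequencing after ribosomal RNA reduction, with ERCC spike-ins, per the labels. For each library the authors deposited RSEM-style gene and transcript tables and a kallisto-style transcript table, named here by their columns; the assembly is mm10 with annotation M21, per the file headers, and their versions were not stated. The deposited units were expected counts (RSEM-style) and estimated counts (kallisto-style), TPM, the percent of a gene's TPM in each transcript, and interval bounds of TPM, which the authors' tables give as a score with no stated level.

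Main values were RSEM-style gene TPM; coding shares sum transcripts annotated as protein-coding in GENCODE M21. Effective length was 99 bases under length by RSEM and 332 and 336 bases under it by kallisto. Library ratios used expected counts rounded to whole numbers with TMM factors (edgeR 4.0.16; DESeq2 1.42.0 for an alternative; R 4.3.3) for genes that had 10 or more counts in both libraries or a total of 20, and exact Clopper-Pearson 95% intervals (SciPy 1.17.1, Python 3.11.15). The ratio step was tested on simulated data. Exon shares came from annotated exons and transcript TPM. Sequences came from GENCODE M21 transcripts (mm10) and RefSeq promoters (GRCm38.p6).

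All members, list genes at 1 TPM or more in both libraries and transcripts at 10% or more of a gene's TPM could be named, without naming every one; some list genes are not reported here. The members and lists were chosen with earlier results of these data known. Intervals cover counting error only, and reads that are not independent molecules would widen them.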

Additional observations from a re-analysis of the deposited data

How the results depend on the processing

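As means of the libraries, Cacna1c, Cacnb2 and Cacna2d1 held over 75% of their family's TPM under each alternative run. Relative to 83.5% ± 0.586 (SD, n = 2), the share of Cacna1c in pore TPM was 80.1% by kallisto-style TPM, 78.3% by coding transcripts, 82.1% by posterior mean TPM and 81.8% by counts not divided by length. The share of Cacnb2 in beta TPM, 80.0% ± 0.840, was 80.9%, 75.3%, 77.3% and 81.6% in that order. Beta over pore TPM, 0.329 ± 0.0441, was 0.403 by kallisto-style TPM, 0.457 by coding transcripts and 0.161 by counts not divided by length, and alpha2delta over pore TPM, 0.418 ± 0.0311, was 0.498 by kallisto-style TPM and 0.715 by coding transcripts. Leaving out either replicate gave 83.1% to 83.9%, 79.4% to 80.6%, 84.7% to 94.6% for Cacna2d1 in alpha2delta TPM, 0.298 to 0.360 and 0.396 to 0.440. Between 7 and 9 subunit genes counted as detected, 7 with a threshold of 2 TPM and 8 by coding transcripts. At 1.5-fold, 2 genes differed between the libraries in place of 1. Of 41 alternative log2 ratios, 3 left the interval of the reported value. A change of sign was looked for only at Cacna2d2, the single 2-fold difference, and none was found there. Of 40 alternative levels 30, and of 10 coding shares 7, moved by more than 1 SD. The levels include TPM over nuclear protein-coding genes, a change of denominator that raised every member (Cacna1c from 80.3 to 190 TPM). Those moves were fixed in advance, and family shares are unchanged by that run. The coding-transcript ratio of Cacna2d2, -1.19, was chosen after seeing the data.

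No paired analysis was possible because the libraries form a single group. With 2 libraries the spread is poorly known. Cacnb4, with 60 and 82 counts, and the transcripts of Cacna1d are limited by depth, and the transcript levels of Cacna1h and Cacnb2 by the division of reads among near-identical transcripts. Losses of reads from the CAST/EiJ allele on the mm10 reference were not tested.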

Other observations

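Of the 16 further subunit genes, 7 had enough counts for a ratio between the libraries. Cacna1e, an R-type pore gene named after its values were seen, had 18 counts in replicate 1 and 141 in replicate 2, a log2 ratio of 2.69 (exact 95% interval 1.98 to 3.49), at 0.06 and 0.44 TPM. Over all genes tested, 3.49% were 2-fold or more higher in replicate 2. Cacng4, with 2 and 25 counts, passed the count minimum only through replicate 2, so its difference is not counted as a call. Among the genes under the minimum, Cacna2d3 had 15 and 3 counts and Cacng3 had 8 and 2, while Cacna2d4 had 0 and 11 and Cacng5 had 0 and 12, so the differences ran in both directions. The T cell and thymus markers were higher in replicate 2, 7 of 7, and their part in the Cacna1e difference was not tested.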
